A study of Mus musculus with 12 samples.

Results

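The genes described here encode the protein components of the cytosolic ribosome. They were taken as every protein-coding gene of the count table whose symbol follows the Rpl or Rps pattern with a number, an optional letter a, l, x or y and an optional further digit, together with Rplp0, Rplp1, Rplp2 and Rpsa. The rule found 83 genes among the 55401 identifiers of the table, 32 of the small (40S) subunit and 51 of the large (60S) subunit, spread over 19 chromosomes with 14 on chromosome 7 and 4 on the X chromosome. Symbols and biotypes came from GENCODE M21 on mouse genome build GRCm38. A further 6 symbols fit the pattern but are annotated as pseudogenes (Rpl32l, Rpl6l, Rps12l1, Rps3a2, Rps3a3 and Rps4l) and were left out.

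A ribosome joins a small subunit, which reads the messenger RNA, to a large subunit, which forms the peptide bond. Each subunit needs its proteins in about equal molar amounts, and the messenger RNAs that encode them share a pyrimidine-rich 5′ end (the terminal oligopyrimidine motif) through which their translation answers to mTORC1 signalling and the binding protein LARP1. Ribosome production is high in growing and dividing cells, progenitors of the brain among them.

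The study cultured cells of CD1 mice and sequenced polyadenylated RNA on the Illumina platform with a stranded kit, in 3 groups of 4 libraries. Postnatal oligodendrocyte precursor cells (OPC) were monolayers derived from the neurospheres of pups aged 0 to 2 days and grown for 2 days with FGF (10 ng/mL) and PDGF-AA (10 ng/mL). Adult neural stem cells (NSC) were neurospheres from mice aged 2 months, grown for 6 to 7 days with FGF (10 ng/mL) and EGF (20 ng/mL). Postnatal NSC were neurospheres from pups aged 0 to 2 days under the same FGF and EGF. All cells were primary cells of the brain subventricular zone, and the labels name no genetic change. The labels give 4 independent litters. They do not say that replicate 1 of one group and replicate 1 of another came from the same litter. All media held B27 (2%), and heparin (2 µg/mL) was given for the NSC groups and not for OPC. OPC libraries therefore differ from NSC libraries in cell type, growth factors, heparin, attachment and days in culture at once, and these cannot be told apart.

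Gene counts per library lay between 16756231 and 54801726, the postnatal NSC libraries being the deepest. Markers of the labelled types were present. The 8 OPC markers summed to 5130 to 10700 counts per 1e6 (CPM) in OPC, 2180 to 2490 CPM in adult NSC and 2990 to 3580 CPM in postnatal NSC. The 9 neural stem markers summed to 5260 to 8540, 9030 to 9590 and 7710 to 8560 CPM in the same order of groups. By the edgeR calls described below, 4 of these 9 were higher and 2 lower in OPC than in adult NSC. The same calls took in 26.3 and 24.7% of all genes tested. Of the lists for other cells, the 8 neuroblast and neuron markers summed to 92.6 to 248 CPM in OPC, 23.2 to 34.2 CPM in adult NSC and 58.3 to 169 CPM in postnatal NSC. The 6 markers of myelinating oligodendrocytes summed to 258 to 531, 144 to 183 and 328 to 901 CPM. The 6 endothelial, 7 pericyte and fibroblast, and 5 ependymal markers stayed at or under 15.9, 15.7 and 50 CPM in every library. The 8 microglial, 4 choroid plexus and 5 erythroid markers stayed at or under 2.02, 0.544 and 0.199 CPM, with Cx3cr1 at 0 in all groups. The part of these markers in the results below was not tested. Since these are bulk samples, fewer cells of a type and less RNA per cell cannot be told apart.

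A postnatal NSC library and an OPC library stood apart from the rest. The mean log2 CPM of 24 genes of the G1/S transition was 4.73 in postnatal NSC 3 and 4.44 in OPC 2, against 5.75 to 6.57 in the other 10 libraries. Postnatal NSC 3 also had the lowest level of its group for 78 of the 80 ribosomal protein genes tested. OPC 2 was the lowest of its group for 13 genes, and OPC 1, whose G1/S value was 6.39, was the lowest for 60. Counts over all ribosomal protein genes are therefore given with and without postnatal NSC 3 and, where its removal moves them, OPC 1.

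Sequences of the starts and of the coding parts matter for what follows and are given here from the reference. The first set shows the starts of ribosomal protein genes. In RefSeq windows (GRCm38.p6), 63 of the 83 genes matched by symbol. A window of 30 bases, 10 before and 20 from the annotated start on, held an unbroken run of at least 8 C or T on the coding strand in 24 of the 63 genes (38.1%), against 13.0% of all 27025 genes with a window. A run of at least 10 was present in 28.6% of them and in 5.59% of all genes. The hexamer CCGGAA, on either strand of the whole 300-base window, was found in 55.6% of the ribosomal protein genes and in 16.7% of all genes. The windows below are those of some members with contrasting results and of 2 paralogue and parent pairs. The longest pyrimidine run is in capitals and the start is at the eleventh base. Rps21 and Rpl26, both described below, are not printed, and their longest runs were 7 and 3 bases. For genes with several annotated starts, the one with the longest run is shown.
Rpl35a: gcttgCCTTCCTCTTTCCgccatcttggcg
Rplp2: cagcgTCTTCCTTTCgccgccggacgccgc
Rpl18: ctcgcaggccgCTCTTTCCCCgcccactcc
Rps27: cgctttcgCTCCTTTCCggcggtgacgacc
Rps27l: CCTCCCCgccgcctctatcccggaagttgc
Rpl22: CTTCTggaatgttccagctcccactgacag
Rpl22l1: gcgcaagcccgTTCTCTTCCCacggctgca
These lie at chr16:33056472-33056501 (+), chr7:141447641-141447670 (+), chr7:45718061-45718090 (+), chr3:90213629-90213658 (−), chr9:66946076-66946105 (+), chr4:152324426-152324455 (+) and chr3:28805498-28805527 (+). Rpl35a holds the longest run of the 7, at 13 bases. Rps27 has a run of 9 across its start, and its paralogue Rps27l a run of 7 that lies upstream of the start. In the other pair the order is the opposite for the starts shown, with a run of 10 in the paralogue Rpl22l1 and of 5 in Rpl22. Rpl22 has 2 annotated starts in RefSeq. The window shown ends at base 152324455, upstream of the Rpl22 gene in GENCODE M21, which begins at base 152325742. It thus lies outside the gene as annotated there, and the start not shown holds no longer run. Among members with a run of at least 8, 10 of 24 were lower in OPC than in postnatal NSC, and among members without one, 19 of 36, where 22.7% of all genes tested were lower.

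The second set shows how close ribosomal protein genes are to their processed pseudogenes, which arose from reverse-transcribed messenger RNA. Stretches of 40 coding bases are shown for Rpl35a beside its copy Rpl35a-ps3, Rpl29 beside Gm13841 and Rpl21 beside Gm10163, with a differing base in capitals. Positions are counted from 1 at the A of the start codon.
Rpl35a: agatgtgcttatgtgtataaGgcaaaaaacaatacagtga
Rpl35a-ps3: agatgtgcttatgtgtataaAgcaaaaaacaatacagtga
Rpl29: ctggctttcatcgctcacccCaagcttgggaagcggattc
Gm13841: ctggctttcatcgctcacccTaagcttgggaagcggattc
Rpl21: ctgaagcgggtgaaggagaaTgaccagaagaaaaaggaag
Gm10163: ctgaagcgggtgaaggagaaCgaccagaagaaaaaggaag
The genes lie at chr16:33056453-33060189, chr9:106429454-106431568 and chr5:146832890-146837032, all on the + strand. The copies lie at chr17:29136972-29137304 (−), chr5:115801677-115802159 (−) and chr9:88390837-88391317 (+). The substitution G156A is the only difference between Rpl35a and Rpl35a-ps3 over 333 coding bases (99.7% identity), and Rpl35a-ps2, Rpl35a-ps4, Rpl35a-ps6 and Gm10243, on 4 other chromosomes, carry the same base there. Rpl29 and Gm13841 differ at 2 of 422 aligned coding bases, one of them C300T. Rpl21 and Gm10163 differ at 2 of 481, one of them T336C. In all, 447 annotated pseudogenes shared at least 20% of their own 50-base stretches with a ribosomal protein gene, and 73 of the 83 genes had such a copy. How reads that align to several places were counted is not given in the sources used here.

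As a group, the ribosomal protein genes took the smallest share of counts in OPC. Their summed counts made up 2.942, 3.303, 3.400 and 3.263% of all gene counts in the 4 OPC libraries, 3.729, 3.740, 3.867 and 3.763% in the adult NSC libraries, and 4.351, 4.019, 3.210 and 4.050% in the postnatal NSC libraries. The 4 OPC libraries lay below all 4 adult NSC libraries, while postnatal NSC 3 lay within the OPC range. With pseudogene copies added, as described below, OPC and adult NSC overlapped, at 4.060, 4.633, 4.692 and 4.587% in OPC and 4.645, 4.679, 4.842 and 4.680% in adult NSC. The means were 3.227 ± 0.199% in OPC, 3.775 ± 0.0631% in adult NSC and 3.907 ± 0.489% in postnatal NSC (SD, n = 4 each). Without replicate 3 the postnatal NSC mean was 4.140%. The 95% exact (Clopper-Pearson) binomial interval of OPC 1, for example, ran from 2.935 to 2.949%, and such intervals cover counting error only. The ratio of 60S to 40S counts was 1.426, 1.492, 1.422 and 1.438 in OPC, between 1.393 and 1.405 in adult NSC, and between 1.389 and 1.422 in postnatal NSC. The 4 OPC libraries lay at or above the highest NSC library on this ratio, with OPC 2 the farthest.

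**Figure D1:**
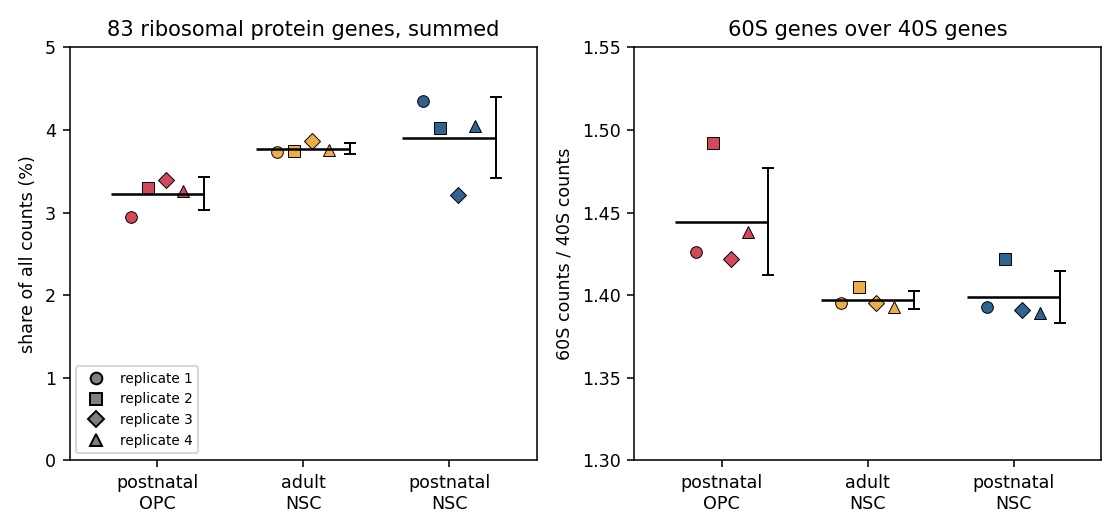
Left, summed counts of the 83 ribosomal protein genes as a percentage of all gene counts, per library. Right, counts of 60S genes over counts of 40S genes on an axis that does not start at 0. Points are libraries by replicate number, horizontal lines are group means and bars are SD (n = 4). The OPC libraries lie between 2.942 and 3.400%, below the adult NSC libraries at 3.729 to 3.867%, and postnatal NSC 3 lies at 3.210%, away from the other 3 of its group.

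Of the 83 genes, 80 passed the filter on low counts. The 3 others were Rpl10l, Rpl39l and Rpl3l, relatives of Rpl10, Rpl39 and Rpl3 that are known from testis or striated muscle. Rpl10l had 0 counts in every library, Rpl39l had 3 counts in all and Rpl3l 12. The level of the other members varied little within groups, with a median coefficient of variation of 8.27% in OPC, 2.72% in adult NSC and 13.2% in postnatal NSC, against 17.3, 7.46 and 19.6% over all genes tested.

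The comparison of OPC with postnatal NSC asks what changes when postnatal neurosphere cells are taken to the precursor stage. No ribosomal protein gene was higher in OPC, and 37 of 80 were lower. Over all 16135 genes tested, 22.4% were called higher and 22.7% lower, or 45.1% in either direction. The 4 OPC libraries lay below all 4 postnatal NSC libraries for 24 members and above them for none, against 16.9% and 18.0% of all genes. The median log2 fold change was −0.27 over the 80 members and −0.01 over all genes, with a range from −1.30 to 0.19 over the members. By subunit, 16 of 32 small-subunit genes and 21 of 48 large-subunit genes were lower. Calls are from edgeR's quasi-likelihood test with Benjamini-Hochberg adjustment over all genes at 0.05. Without postnatal NSC 3, 56 members were lower and none higher, and without both that library and OPC 2 the count was again 56. When the trend of fold change with transcript length and GC content was removed, 24 were lower and 4 higher. The shares of all genes called in these refits are not given here, so the 22.7% above does not apply to them.

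Among the small-subunit genes, Rps21, which encodes a small protein of the 40S subunit, had the lowest adjusted p of the 5 largest falls. It had 110.5, 129.9, 125.0 and 102.2 CPM in OPC, 187.7, 188.9, 189.3 and 191.7 CPM in adult NSC, and 244.1, 223.9, 193.3 and 226.8 CPM in postnatal NSC. The OPC libraries lay below every library of both NSC groups. The log2 fold change of OPC over postnatal NSC was −0.93 ± 0.09 (SE; edgeR adjusted p = 1.53e-05), a level 1.90-fold lower. Its call held in all 25 alternative settings, with values from −1.05 to −0.77. Rps2, whose protein lines the entry of the messenger RNA channel, had 648.5, 401.7, 645.8 and 621.7 CPM in OPC, 1219, 1175, 1201 and 1221 CPM in adult NSC, and 1352, 938.8, 700.3 and 1061 CPM in postnatal NSC. OPC and postnatal NSC did not overlap, though postnatal NSC 3 came close. Rps2 was 1.75-fold lower in OPC than in postnatal NSC (log2 fold change −0.81 ± 0.19 SE, edgeR adjusted p = 0.00412). Rps2 shares sequence with 31 copies, and the gene alone held 28.6% of the counts of gene and copies in OPC, against 23.6% in postnatal NSC. With the copies added the fall was −1.09.

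Rps14, a protein of the platform of the 40S subunit, had 303.4 to 344.3 CPM in OPC, 319.5 to 356.7 CPM in adult NSC and 438.3 to 494.0 CPM in postnatal NSC. It was lower than in postnatal NSC both in OPC, by −0.56 ± 0.07 on the log2 scale (edgeR adjusted p = 9.11e-05), and in adult NSC, by −0.48 ± 0.07 (edgeR adjusted p = 0.000266). Its levels in OPC and adult NSC overlapped, with a log2 fold change of −0.08 ± 0.07. Rps4x, the X-linked form of a 40S protein, had 699.5 to 775.7 CPM in OPC, 852.8 to 887.7 CPM in adult NSC and 779.2 to 984.4 CPM in postnatal NSC. It was lower in OPC than in postnatal NSC by −0.30 ± 0.08 (edgeR adjusted p = 0.0123). Rps6, the 40S protein phosphorylated by S6 kinases, had 559.1 to 665.2 CPM in OPC, 653.7 to 688.5 CPM in adult NSC and 563.1 to 738.6 CPM in postnatal NSC. The OPC range lay almost within that of postnatal NSC, and the log2 fold change of −0.09 ± 0.09 was not called (edgeR adjusted p = 0.452).

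Among the large-subunit genes, Rpl41, which encodes the smallest ribosomal protein, had 294.1, 291.9, 369.0 and 351.0 CPM in OPC, 459.4, 469.1, 486.5 and 476.1 CPM in adult NSC, and 644.4, 607.4, 417.2 and 573.0 CPM in postnatal NSC. All OPC libraries lay below all NSC libraries. Its level in OPC was 1.72-fold lower than in postnatal NSC (log2 fold change −0.78 ± 0.13 SE, edgeR adjusted p = 0.00043). Rpl18, whose start is among those printed above, had 273.4, 314.5, 283.3 and 262.5 CPM in OPC, 343.4, 348.7, 362.6 and 368.8 CPM in adult NSC, and 483.8, 458.8, 371.4 and 472.0 CPM in postnatal NSC. The 3 groups did not overlap, with OPC lowest and postnatal NSC highest. Rpl18 was lower in OPC than in postnatal NSC by −0.66 ± 0.09 (edgeR adjusted p = 0.000164). Rpl24 showed the most negative value of all members, −1.30 ± 0.20 (edgeR adjusted p = 0.000265), but on few counts. Its gene had 3.055 to 4.322 CPM in OPC and 6.236 to 11.38 CPM in postnatal NSC, and held 8.51% of the counts of gene and 2 copies in OPC, against 13.3% in postnatal NSC. With the copies added the value was −0.66.

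The stalk of the large subunit recruits the translation factors that hydrolyse GTP, and is built from Rplp0, Rplp1 and Rplp2. Rplp1 had 345.8, 444.8, 444.9 and 383.8 CPM in OPC, 611.4, 576.7, 559.3 and 566.3 CPM in adult NSC, and 658.7, 599.2, 444.1 and 613.9 CPM in postnatal NSC. OPC lay below adult NSC throughout, and met postnatal NSC only at its replicate 3. Rplp1 was lower in OPC than in postnatal NSC by −0.52 ± 0.12 (edgeR adjusted p = 0.00445). Rplp0, the stalk base, had 966.6 to 1064 CPM in OPC, 1157 to 1191 CPM in adult NSC and 1011 to 1382 CPM in postnatal NSC. Its log2 fold change of −0.27 ± 0.09 was called (edgeR adjusted p = 0.0297), and lost the call in 6 of 25 alternatives. Rplp2 had 274.1 to 346.9 CPM in OPC, 398.0 to 426.7 CPM in adult NSC and 248.3 to 392.2 CPM in postnatal NSC, and its value against postnatal NSC of −0.09 ± 0.13 was not called (edgeR adjusted p = 0.59).

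Rpl5 and Rpl11 form a particle with 5S ribosomal RNA that, outside the ribosome, binds Mdm2 and so links ribosome assembly to p53. Rpl5 had 690.5 to 795.6 CPM in OPC, 777.0 to 841.1 CPM in adult NSC and 651.2 to 837.6 CPM in postnatal NSC. Rpl11 had 399.6 to 445.6 CPM in OPC, 477.3 to 497.8 CPM in adult NSC and 389.7 to 527.1 CPM in postnatal NSC. For both genes the OPC range fell within that of postnatal NSC. Neither was called in any of the 3 comparisons, with log2 fold changes in OPC over postnatal NSC of −0.01 ± 0.09 for Rpl5 and −0.15 ± 0.09 for Rpl11. Rpl10, which joins the large subunit late in its assembly, had 467.2 to 536.8 CPM in OPC, 589.1 to 619.8 CPM in adult NSC and 581.2 to 683.4 CPM in postnatal NSC. The OPC libraries lay below all others, and the fall against postnatal NSC was −0.30 ± 0.07 (edgeR adjusted p = 0.00591). Rpl13, a further large-subunit gene, was lower in OPC than in postnatal NSC by −0.50 ± 0.13 (edgeR adjusted p = 0.00898). This call was lost when the length and GC trend was removed, at −0.13.

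Fau, Rack1 and Rpl36al also encode ribosomal subunit proteins but have other symbols. Fau encodes its protein as a fusion with a ubiquitin-like protein, and Rack1 is a scaffold on the 40S head. Each of them was lower in OPC than in postnatal NSC, and each was lower in adult NSC than in postnatal NSC. Fau had 172.5 to 210.2 CPM in OPC, 192.8 to 208.2 CPM in adult NSC and 225.1 to 308.2 CPM in postnatal NSC, with log2 fold changes of −0.57 ± 0.10 in OPC and −0.48 ± 0.10 in adult NSC (edgeR adjusted p = 0.000846 and 0.00212). Rack1 fell by −0.44 ± 0.10 in OPC and −0.29 ± 0.10 in adult NSC (edgeR adjusted p = 0.00371 and 0.0299). Rpl36al was counted at 0.3637 to 1.441 CPM over all libraries.

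**Figure D2:**
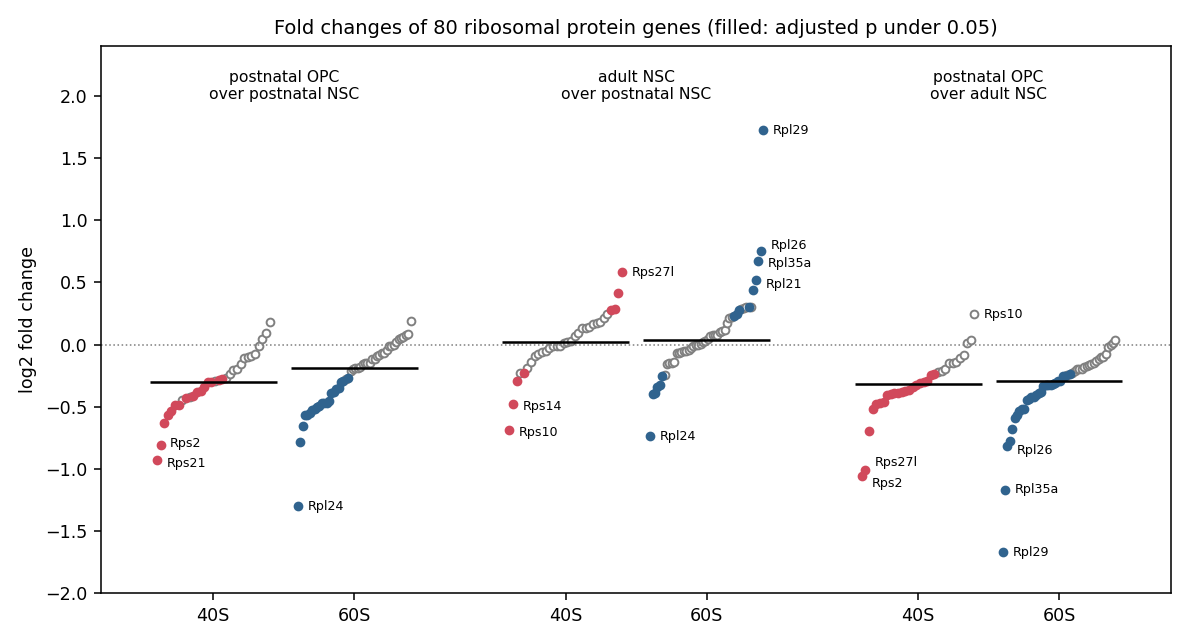
Log2 fold changes of the 80 ribosomal protein genes tested in each of 3 comparisons, sorted within the 40S and 60S subunits. Filled points passed an adjusted p of 0.05, open points did not, and horizontal lines are the medians of each subunit. In both comparisons of OPC every filled point lies below 0, 37 against postnatal NSC and 49 against adult NSC, while adult over postnatal NSC has 13 filled points above 0, with Rpl29 highest, and 10 below.

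OPC were also set against adult NSC, which differ in the age of the source animals as well. No member was higher in OPC and 49 of 80 were lower, where 26.3% of all genes tested were higher and 24.7% lower, or 51.0% in either direction. The 4 OPC libraries lay below all 4 adult NSC libraries for 62 members and above them for none, against 28.7% and 27.9% of all genes. The median was −0.31 over the members and 0.01 over all genes. Of these, 21 were of the small and 28 of the large subunit. Without OPC 1 the count was 30, without postnatal NSC 3 it was 59, and with library totals as the scaling in place of TMM it was 32. For these refits no share of all genes called is given, and the 24.7% is that of the main fit. Both OPC comparisons share the OPC libraries, so their calls are not independent of each other.

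The 5 largest falls in OPC against adult NSC were those of Rpl29, Rpl35a, Rps2, Rps27l and Rpl26, of which Rpl29, Rpl35a and Rpl26 are described with their copies below. Rps27l had 59.83, 52.27, 83.23 and 81.38 CPM in OPC and 134.0, 141.2, 140.4 and 141.1 CPM in adult NSC. The ranges were well apart, and Rps27l was lower in OPC by −1.01 ± 0.20 (edgeR adjusted p = 0.0013). Rpl22l1 had 54.07, 58.26, 77.29 and 85.22 CPM in OPC and 119.6, 117.2, 118.0 and 114.8 CPM in adult NSC, again without overlap, and was lower in OPC by −0.77 ± 0.15 (edgeR adjusted p = 0.00128). Rps21 was lower in OPC by −0.70 ± 0.09 (edgeR adjusted p = 6.21e-05). Rps2 was lower by −1.06 ± 0.19 (edgeR adjusted p = 0.000591), or by −0.37 with its copies added. Of the stalk, Rplp1 and Rplp2 were lower by −0.52 ± 0.12 and −0.39 ± 0.13 (edgeR adjusted p = 0.00382 and 0.0267), and Rplp2 lost its call in 5 of 25 alternatives.

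Adult and postnatal NSC grew as neurospheres under the same factors and differ by label in the age of the source, but not in age alone. The stated depth, in units of 1e6 reads, was 37 for each postnatal NSC library and 20 for each adult NSC and OPC library. Age and the way each group was sequenced therefore cannot be told apart in adult against postnatal NSC. The ribosomal protein genes of adult and postnatal NSC showed no common direction. Of 80 members, 13 were higher and 10 lower in adult NSC, where 25.2% of all genes tested were higher and 27.9% lower, or 53.1% in either direction. The 4 adult NSC libraries lay above all 4 postnatal NSC libraries for 15 members and below them for 7, against 27.2% and 26.0% of all genes. The median was 0.03 over the members and −0.03 over all genes. The counts ran between 4 and 25 higher and between 3 and 19 lower over 25 alternatives, with 8 higher and 16 lower without postnatal NSC 3. Shares of all genes are given below only for the alternatives with added copies.

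The 4 large-subunit genes that rose most in adult NSC were Rpl29, Rpl26, Rpl35a and Rpl21. Rpl29 had 438.8, 426.2, 446.4 and 450.5 CPM in adult NSC and 155.5, 135.2, 110.7 and 131.5 CPM in postnatal NSC, 3.31-fold higher (log2 fold change 1.73 ± 0.10 SE, edgeR adjusted p = 2.8e-07). In OPC it had 125.9, 139.7, 150.0 and 138.2 CPM, like postnatal NSC. Its 21 copies moved the other way. Summed, they had 286.9, 289.4, 282.1 and 261.4 CPM in adult NSC, and 1458, 1325, 1049 and 1295 CPM in postnatal NSC. The OPC libraries had 841.4, 969.9, 929.2 and 851.6 CPM at the copies. The gene thus held 61.1% of the counts of gene and copies in adult NSC and 9.42% in postnatal NSC. With the copies added, Rpl29 was lower in adult NSC by −0.99 ± 0.10 (edgeR adjusted p = 1.97e-05). With only its most counted copy added the difference was −0.10 (edgeR adjusted p = 0.334).

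The gene and its summed copies also differed in direction for the other 3. Rpl35a, a large-subunit gene mutated in some human Diamond-Blackfan anaemia, had 285.2, 271.8, 289.1 and 274.4 CPM in adult NSC, and 197.1, 183.2, 142.2 and 182.2 CPM in postnatal NSC, a rise of 0.67 ± 0.10 (edgeR adjusted p = 0.000247). Its copies summed to 361.9 to 389.2 CPM in adult NSC and 763.6 to 966.4 CPM in postnatal NSC. With them added the value was −0.66 (edgeR adjusted p = 0.000139). Rpl26, a protein near the exit of the peptide tunnel, had 401.1, 399.6, 409.5 and 401.6 CPM in adult NSC, and 336.8, 196.2, 167.3 and 256.8 CPM in postnatal NSC. Its rise of 0.75 ± 0.18 (edgeR adjusted p = 0.00474) became −0.29 with copies (edgeR adjusted p = 0.00474). Rpl21 had 580.0 to 624.7 CPM in adult NSC and 363.4 to 447.4 CPM in postnatal NSC, a rise of 0.52 ± 0.10 (edgeR adjusted p = 0.000886), and −0.82 with its copies (edgeR adjusted p = 0.00242). With only the most counted copy added, the values in adult over postnatal NSC were 0.05 for Rpl35a (edgeR adjusted p = 0.674), −0.30 for Rpl26 (edgeR adjusted p = 0.00315) and −0.01 for Rpl21 (edgeR adjusted p = 0.935), so that the sign of Rpl35a did not turn. In OPC over adult NSC, Rpl21, Rpl29 and Rpl35a stood at 1.23, 0.53 and 0.52 with all copies, and at 0.27, −0.16 and −0.33 with the most counted copy. Of these last 3 values that of Rpl35a was called lower, and the others were not called (edgeR adjusted p = 0.00614 for Rpl35a, 0.0883 for Rpl21 and 0.121 for Rpl29).

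The copies of one gene had nearly the same counts on different chromosomes. For the near-identical sequences printed above, the 5 copies Rpl35a-ps2, -ps3, -ps4, -ps6 and Gm10243 had 129.5 to 159.7 CPM each in OPC, 62.65 to 70.42 CPM in adult NSC and 135.6 to 173.9 CPM in postnatal NSC. Gm10163 on chromosome 9 and Gm13370 on chromosome 2, copies of Rpl21, had 237.9 and 237.8 CPM in OPC 1 and the same value, 7.367 CPM, in adult NSC 1. Summed copies may therefore hold the same read more than once, which the table cannot show. Since the handling of reads with several alignments is not known, the sums set no limit on what the copies add. Rpl34, not called as a gene in any comparison, had 228.2 to 239.6 CPM in adult NSC and 203.4 to 279.0 CPM in postnatal NSC. Its copy Rpl34-ps1 on chromosome 6 had 3.771 to 4.521 CPM in adult NSC and 109.6 to 148.6 CPM in postnatal NSC. Over all members with a copy, the gene's share of counts was higher in all 4 adult NSC libraries than in all 4 postnatal NSC libraries for 23 of 73, and lower in all 4 for 7. This share was computed only for members with a copy, so it has no value over all genes. By CPM, a different measure, 27.2% of all genes tested lay above and 26.0% below in this way. Pseudogenes with such sequence took 1.266 ± 0.100% of all counts in OPC, 0.937 ± 0.0272% in adult NSC and 1.646 ± 0.290% in postnatal NSC (SD, n = 4 each). Read length and the handling of reads with several alignments are not given per group in the sources used here, and their part in these values was not tested.

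**Figure D3:**
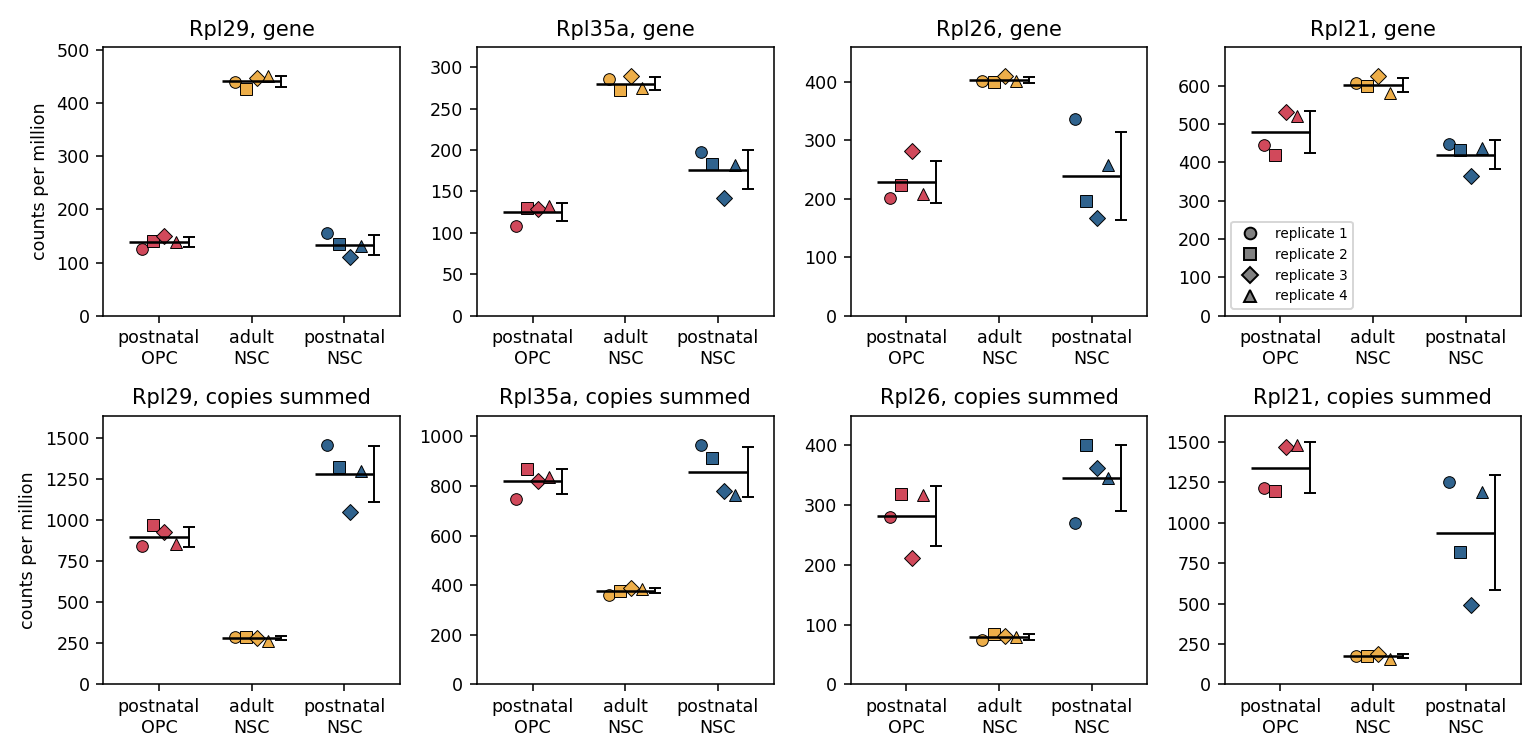
CPM per library of Rpl29, Rpl35a, Rpl26 and Rpl21 (top) and of their annotated pseudogene copies summed (bottom). Points are libraries by replicate number, lines are means and bars are SD (n = 4). For each gene the adult NSC libraries are highest at the gene and lowest at the copies, as for Rpl29 with 426.2 to 450.5 CPM at the gene and 261.4 to 289.4 CPM at the copies.

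With all copies added, 6 members were higher and 19 lower in adult than in postnatal NSC, with 24.9 and 28.8% of all genes called. Of the 13 genes called higher alone, 5 kept that call and 4 were called in the opposite direction. In OPC against postnatal NSC, 41 were lower and none higher with copies added, with 23.3 and 22.1% of all genes called, and in OPC against adult NSC 34 were lower and 4 higher, with 25.1 and 26.8%. In the comparison of OPC with postnatal NSC, 34 of the 37 falls kept their call with the copies added and none turned. Against adult NSC, 33 of 49 falls kept it and 3 turned. With only the most counted copy added, fewer turned. Of the calls in adult against postnatal NSC, 1 turned and 4 members were higher and 16 lower (24.7 and 29.0% of all genes). In OPC against adult NSC 37 of 49 falls kept their call and none turned, with 1 member higher and 38 lower (26.7 and 25.1%). In OPC against postnatal NSC 36 of 37 kept it, with none higher and 42 lower (21.8 and 23.6%). The genes whose own counts made up at least 90% of gene and copies in every library, or that had no copy, numbered 28. Among them 14 fell and none rose in OPC against postnatal NSC, and 16 fell and none rose in OPC against adult NSC. In adult against postnatal NSC 4 rose and 5 fell. Of all genes tested without added copies, 22.7, 24.7 and 27.9% were lower and 22.4, 26.3 and 25.2% higher, in this order of comparisons. The medians of the 28 genes were −0.30, −0.31 and −0.01. In OPC against postnatal NSC, 19 of them fell and none rose without postnatal NSC 3. There, 11 fell and 1 rose with the length and GC trend removed, and 13 fell and 1 rose without postnatal NSC 1. Shares of all genes are not given for these refits.

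**Figure D4:**
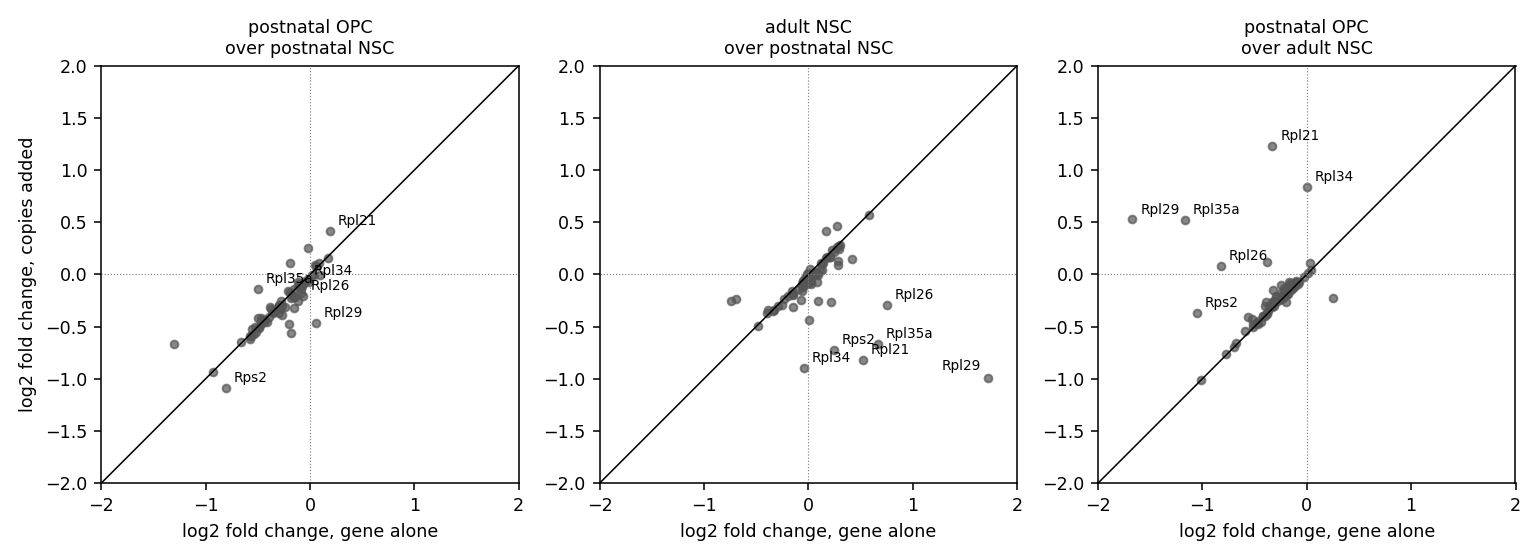
Log2 fold changes of the 73 ribosomal protein genes with a copy, from the gene alone (horizontal axis) and with its pseudogene copies added (vertical axis), in 3 comparisons. The diagonal marks equal values. In adult over postnatal NSC, Rpl29 lies at 1.73 and −0.99 and Rpl35a at 0.67 and −0.66, while in OPC over postnatal NSC most points lie near the diagonal.

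Members that fell in adult NSC were led by Rpl24, Rps10 and Rps14. Rps10 was thinly counted, at 1.819 to 2.927 CPM in adult NSC and 2.931 to 4.548 CPM in postnatal NSC (−0.69 ± 0.22, edgeR adjusted p = 0.0175, lost in 3 of 25 alternatives), and its gene held 3.18% of the counts of gene and copies in adult NSC. Rpl24 had 4.785 to 5.784 CPM in adult NSC and 6.236 to 11.38 CPM in postnatal NSC. Each of these 2 genes overlaps an annotated readthrough gene that had 0 counts in every library, Gm28037 for Rpl24 and RPS10-NUDT3 for Rps10. Rpl13, which was well counted, was lower in adult NSC by −0.39 ± 0.13 (edgeR adjusted p = 0.0279). It lost its call in 8 of 25 alternatives.

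Some ribosomal proteins have a paralogue, a second gene that encodes a related protein. The ratio of paralogue to parent compares the 2 within a library, and so does not depend on how libraries are scaled. There were 15 such tests, by exact two-sided permutation of 4 against 4 libraries, for which the smallest possible p is 0.0286. Tests at this p had an adjusted p of 0.0429 after Benjamini-Hochberg adjustment over the 15 tests. Rpl22l1 is repressed by its parent Rpl22 in mouse cells, as background. Its log2 ratio to Rpl22 was −1.86, −2.14, −1.66 and −1.48 in OPC, between −1.03 and −0.93 in adult NSC, and −1.29, −1.46, −1.26 and −0.91 in postnatal NSC. OPC lay below both NSC groups. The difference was −0.56 from postnatal NSC and −0.80 from adult NSC, each with an exact p of 0.0286 (adjusted 0.0429). Rpl22 itself had 196.7 to 257.3 CPM in OPC, 218.7 to 241.4 CPM in adult NSC and 194.6 to 242.4 CPM in postnatal NSC, and was not called in any comparison. Adult NSC exceeded postnatal NSC by 0.25 in this ratio, which the exact test did not separate (p = 0.143, adjusted 0.195).

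Rps27l, a paralogue of Rps27 that is known as a p53 target, had a ratio to Rps27 of −1.39, −1.94, −1.16 and −1.28 in OPC, −0.63, −0.56, −0.58 and −0.44 in adult NSC, and −1.50, −1.54, −1.91 and −0.96 in postnatal NSC. Adult NSC stood above both other groups, by 0.92 over postnatal NSC and with OPC lower than adult NSC by −0.89 (exact p = 0.0286 and adjusted 0.0429 for each). OPC and postnatal NSC overlapped, with a difference of 0.03 (exact p = 0.914). In adult against postnatal NSC Rps27 was lower and Rps27l higher, while in OPC against adult NSC Rps27 was not called, at −0.14. Rps27 had 156.5 to 201.1 CPM in OPC, 191.1 to 209.9 CPM in adult NSC and 237.2 to 263.8 CPM in postnatal NSC. Rps27l had 134.0 to 141.2 CPM in adult NSC, and 93.51, 81.43, 63.98 and 132.6 CPM in postnatal NSC. Its rise in adult NSC of 0.58 ± 0.20 (edgeR adjusted p = 0.027) lost the call in 7 of 25 alternatives, with a value of 0.44 without postnatal NSC 3.

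Rpl7l1 is a relative of Rpl7 whose human counterpart is found in large-subunit precursors. Its ratio to Rpl7 lay between −3.18 and −2.88 in OPC, −2.61 and −2.52 in adult NSC, and −3.05 and −2.80 in postnatal NSC. The ratio was 0.40 higher in adult than in postnatal NSC and 0.42 lower in OPC than in adult NSC (log2 difference −0.42), both with exact p = 0.0286 (adjusted 0.0429). Rpl7l1 had 112.4, 103.8, 115.5 and 117.8 CPM in OPC, 150.0, 155.1, 157.6 and 150.8 CPM in adult NSC, and 118.6, 109.6, 95.26 and 128.8 CPM in postnatal NSC. Its rise in adult NSC of 0.44 ± 0.09 (edgeR adjusted p = 0.00148) held in all 25 alternatives. Rpl7 did not pass the test in any comparison. The ratio of Rpl36al to Rpl36a differed by −1.03 between OPC and postnatal NSC and by −1.18 between adult and postnatal NSC (exact p = 0.0286 each), but Rpl36al had at most 1.441 CPM. The ratio of Rps4l, one of the annotated pseudogenes left out above, to Rps4x lay between −8.52 and −7.02 in OPC, −6.32 and −6.05 in adult NSC, and −7.80 and −7.01 in postnatal NSC. Adult NSC lay above both other groups, but Rps4l was thinly counted, with 2022 counts over all libraries together.

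**Figure D5:**
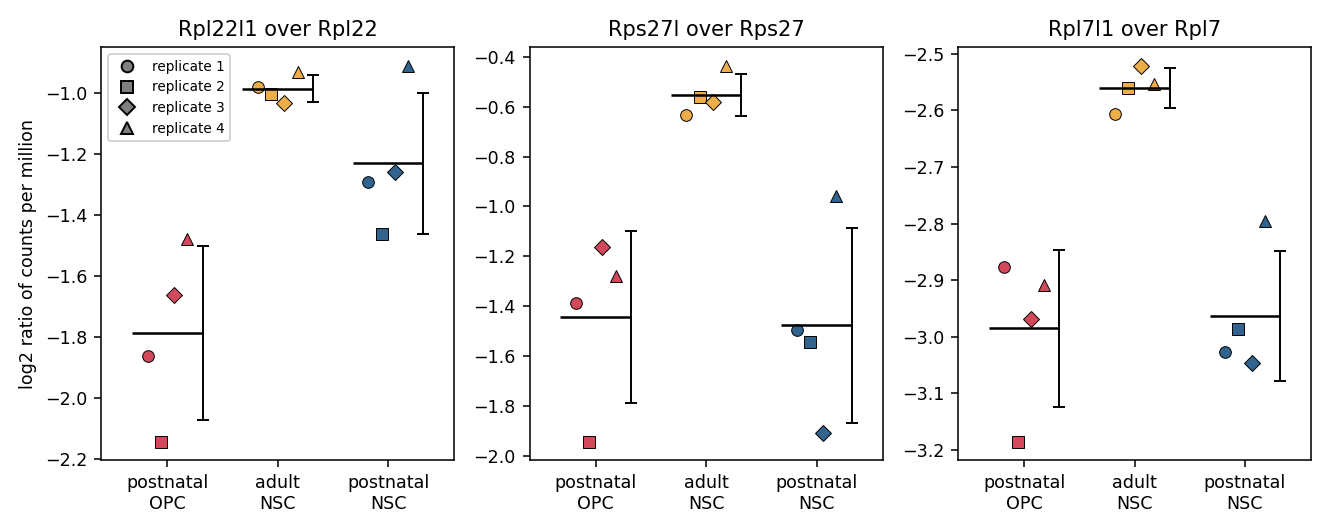
Log2 ratio of the CPM of Rpl22l1, Rps27l and Rpl7l1 to the CPM of their parent genes, per library, on axes that do not start at 0. Points are libraries by replicate number, lines are means and bars are SD (n = 4). The adult NSC libraries lie closest together in all 3 ratios, OPC are lowest for Rpl22l1 at −2.14 to −1.48, and OPC and postnatal NSC overlap for Rps27l and Rpl7l1.

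Genes that build the ribosome, rather than form part of it, differed between the groups in another way. The lists hold nucleolar ribonucleoprotein genes, assembly factors of either subunit and the RNA polymerase I machinery that transcribes ribosomal DNA. In adult against postnatal NSC, 8 of 12 nucleolar genes, 24 of 35 small-subunit factors and 29 of 42 large-subunit factors were higher and none was lower, beside the 25.2% of all genes called higher. Of 15 polymerase I genes, 7 were higher and 2 lower. The counts called higher ranged over 25 alternatives from 7 to 11 nucleolar genes, 19 to 27 small-subunit factors and 24 to 32 large-subunit factors, and was 7 polymerase I genes in each. Shares of all genes are not given for most of these alternatives. The medians were 0.60, 0.57, 0.52 and 0.27, against 0.03 for the ribosomal protein genes.

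Mdn1, an ATPase that remodels large-subunit precursors, had 152.7, 162.6, 121.6 and 163.2 CPM in adult NSC, and 66.56, 52.76, 46.03 and 63.96 CPM in postnatal NSC. The ranges were far apart, with a log2 fold change of 1.39 ± 0.15 (edgeR adjusted p = 3.41e-05). Utp20, a component of the small-subunit processome, had 122.7 to 127.6 CPM in adult NSC and 28.1 to 77.58 CPM in postnatal NSC (1.11 ± 0.27, edgeR adjusted p = 0.0049). Dkc1, the pseudouridine synthase of box H/ACA particles, had 100.4 to 113.1 CPM in adult NSC and 31.7 to 76.49 CPM in postnatal NSC (0.93 ± 0.26, edgeR adjusted p = 0.0101). Npm1, an abundant nucleolar chaperone, had 899.8 to 1035 CPM in adult NSC and 350 to 660.6 CPM in postnatal NSC (0.91 ± 0.18, edgeR adjusted p = 0.00143). Polr1b, a core subunit of RNA polymerase I, had 51.86 to 54.1 CPM in adult NSC and 23.16 to 39.09 CPM in postnatal NSC (0.80 ± 0.14, edgeR adjusted p = 0.000597). In Utp20, Dkc1 and Npm1 the lowest postnatal NSC value was that of replicate 3. Polr1c and Taf1c were the 2 polymerase I genes called lower, at −0.27 and −0.57.

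In OPC against adult NSC the same lists were lower, with 8 of 12, 23 of 35, 31 of 42 and 6 of 15 genes, and 1 polymerase I gene, Taf1b, higher, beside 24.7% of all genes called lower. Rrp1b fell by −1.53, Mdn1 by −1.47, Utp20 by −1.25, Nhp2 by −1.15 and Polr1a by −0.92. Both comparisons share the adult NSC libraries. In OPC against postnatal NSC, where 22.4% of all genes were higher and 22.7% lower, the lists had calls in both directions. Of the small-subunit factors 6 were higher and 5 lower, of the large-subunit factors 6 and 6, of the nucleolar genes 1 and 2, and of the polymerase I genes 3 and 1. Krr1 and Rpf1 were higher in OPC, at 0.61 and 0.67, and Rrp9 and Ppan lower, at −0.73 and −0.69. Without postnatal NSC 3 the assembly factors called lower were 9 of the small and 15 of the large subunit, and those called higher 3 and 4. The share of all genes called in that refit is not given here. With all libraries, the medians of the 2 assembly lists in OPC over postnatal NSC were −0.00 and −0.03, against −0.27 for the ribosomal protein genes.

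Messenger RNAs outside the 83 genes that carry the terminal oligopyrimidine motif were split as well. Of 22, 3 were higher and 6 lower in OPC than in postnatal NSC, where 22.4 and 22.7% of all genes were. Without postnatal NSC 3, 3 were higher and 11 lower, and the share of all genes called in that refit is not given here. In OPC against adult NSC 3 were higher and 7 lower, beside 26.3 and 24.7%, and in adult against postnatal NSC 5 and 7, beside 25.2 and 27.9%. This list is not free of ribosomal subunit proteins. Fau and Rack1 are in it, and both count among its genes lower in OPC and in adult NSC than in postnatal NSC. Of 27 initiation factors, 14 were higher and none lower in adult than in postnatal NSC, led by Eif3j1 at 1.26, Eif1a at 1.17 and Eif2s1 at 1.00, and 15 were lower and 1 higher in OPC than in adult NSC, beside the same shares of all genes. In OPC against postnatal NSC 4 were higher and 4 lower. Of 13 genes of mTORC1 signalling, 5 were lower and 1 higher in OPC than in postnatal NSC, where 22.7% of all genes were lower. The list was split in OPC against adult NSC, with 5 higher and 6 lower, and in adult against postnatal NSC, with 2 higher and 3 lower. Eif4ebp1, the repressor of cap-dependent translation that mTORC1 phosphorylates, had 5.567, 2.691, 6.455 and 6.629 CPM in OPC, 27.94 to 32.32 CPM in adult NSC, and 24.61, 15.02, 5.134 and 26.19 CPM in postnatal NSC. It was lower in OPC than in postnatal NSC by −1.74 ± 0.42 (edgeR adjusted p = 0.00497) and than in adult NSC by −2.50 ± 0.43 (edgeR adjusted p = 0.000433), postnatal NSC 3 lying within the OPC range. Larp1 had 112.1 to 146.2 CPM in OPC, 214.1 to 227.1 CPM in adult NSC and 103.9 to 181.8 CPM in postnatal NSC, and was higher in adult than in postnatal NSC by 0.57 ± 0.15 (edgeR adjusted p = 0.00773). Of 10 genes of the MYC network, 4 were higher and 4 lower in adult than in postnatal NSC, with a median of −0.41, and 2 were higher and 2 lower in OPC than in postnatal NSC. In OPC against adult NSC 4 were higher and 3 lower. Mycn, a transcription factor known to raise ribosome production, had 3.437, 2.65, 5.36 and 2.594 CPM in OPC, 11.43 to 17.9 CPM in adult NSC, and 9.289, 4.562, 6.686 and 5.119 CPM in postnatal NSC. Its log2 fold changes were −0.88 ± 0.28 in OPC and 1.18 ± 0.27 in adult NSC, each over postnatal NSC (edgeR adjusted p = 0.0216 and 0.00322). The OPC and postnatal NSC ranges of Mycn overlapped. Leaving out 1 library gave 0 to 5 genes of this list lower in OPC than in postnatal NSC, so the Mycn call in OPC was not always kept.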

How the data were processed

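RNA of 12 libraries was read as raw gene counts deposited by the authors, with 4 libraries per group assigned from the labels. FastQC, STAR and featureCounts 1.22.2 with build GRCm38 are named per the submitters' processing notes. Their order, settings and annotation, the use of strand and the handling of reads with several alignments are not given in the sources used here. RNA integrity was above 9.9, per the labels. Of 55401 identifiers, 55141 were found in GENCODE M21 by identifier, 54349 of them with the same version; the other 260 held at most 0.013% of counts.

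The counts were tested with edgeR 4.0.16 (R 4.3.3) in 1 quasi-likelihood fit of all 12 libraries, with filterByExpr by group (minimum count 10, minimum total 15), TMM scaling and Benjamini-Hochberg adjustment over the 16135 genes kept, at 0.05. CPM are per 1e6 of the TMM-scaled total and are not divided by length, so levels are not compared between genes. Fold changes are log2, with SE taken from the test statistic. p-values measure the spread between these 4 libraries per group. Total counts of 16756231 to 54801726 per library set the counting error. Paralogue ratios were log2 CPM differences with a prior count of 2. The fit was tested on simulated counts. Copies were annotated pseudogenes sharing at least 20% of their own 50-base stretches (at least 30 stretches) with a gene's longest coding transcript; both ways of adding them were chosen after seeing the data. Named members were the 5 largest rises and falls called per comparison and genes of the stalk, the 5S particle and paralogues, with Rps6, Rpl10 and Rps4x; Rpl22, Rpl7, Rps27 and Rpl34 were added after their values were seen. From the other lists, genes were taken among the 3 largest called changes per direction and comparison, and genes called against the rest of their list. The members and lists were chosen with earlier results of these data known. Alternatives used DESeq2 1.42.0, limma 3.58.1 (voom), other scalings and filters, a length and GC correction, a replicate block, left-out libraries and added copies. Sequences are from RefSeq windows and GENCODE M21 transcripts. The sequence work used Python with pandas. Results of a few genes are not reported here.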

Additional observations from a re-analysis of the deposited data

Results flagged for a closer look

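Of 87 groups of 4 libraries looked at (23 named members, the summed share and 5 paralogue ratios in 3 groups), 4 held a library whose gap to its nearest neighbour was above Dixon's critical share of the group's range. Chance flags about 1 group in 20. OPC 2 was the library in 2 of them. It had 608 CPM of Rpl13, against 448.1 to 470.3 CPM in the other OPC libraries, and 402 CPM of Rps2, against 621.7 to 648.5 CPM. OPC 2 also has the lowest G1/S level of all libraries, a mean log2 CPM of 4.44. Adult NSC 1 had 554 CPM of Rpl13, against 532.4 to 534.2 CPM in the other adult NSC libraries, and 134 CPM of Rps27l, against 140.4 to 141.2 CPM. These adult differences are small beside those between groups.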

How the results depend on the processing

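Over 25 alternatives, the median log2 fold change of the ribosomal protein genes stayed negative in both OPC comparisons, from −0.353 to −0.171 against postnatal NSC and from −0.325 to −0.224 against adult NSC. In adult over postnatal NSC it ran from −0.069 to 0.124. The causes of the changes below were not tested, and shares of all genes called are given above only for the main fit and for added copies. For OPC against postnatal NSC, 1 member was called higher with voom and 4 with the length and GC trend removed, where 24 were lower, and 56 were lower without postnatal NSC 3 and OPC 2 together. Leaving out 1 library gave 0 to 1 higher and 30 to 56 lower. For adult against postnatal NSC, the higher count was 7 with library totals, 7 with no filter, 25 with the length and GC trend removed, 8 with the replicate block, 6 with copies added and 4 with the highest copy added. The lower count was 16 with voom, 3 with the trend removed, 19 without both libraries, 19 with copies and 16 with the highest copy. Leaving out 1 library gave 6 to 13 higher and 5 to 16 lower. For OPC against adult NSC, 4 members were higher with copies and 1 with the highest copy, and 32 were lower with library totals, with 30 to 59 lower when 1 library was left out. The median there was −0.251 with voom, −0.234 with library totals, −0.224 with copies and −0.239 with the highest copy.

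The sign turned mostly with copies. With all copies and with the highest copy added, Rpl29 in OPC over postnatal NSC was −0.461 and −0.262. In adult over postnatal NSC, Rpl21 was −0.819 and −0.013, Rpl26 −0.29 and −0.295, Rpl29 −0.988 and −0.099, and Rps2 −0.723 and −0.42. Rpl35a was −0.663 with all copies, and Rplp1 0.288 with the length and GC trend removed. In OPC over adult NSC, Rpl21 was 1.232 and 0.272, Rpl26 0.083 and 0.088 and Rps10 −0.228 and −0.238, and with all copies Rpl29 was 0.527 and Rpl35a 0.521. The summed share was 3.64% in OPC and 4.147% in adult NSC as a share of protein-coding counts, 3.862% in adult NSC with the other subunit genes, 3.777, 4.172 and 4.623% in OPC, adult and postnatal NSC with named pseudogenes, and 4.493, 4.712 and 5.554% with copies. Same-numbered libraries showed no common deviation, with correlations from −0.36 to 0.32 between OPC and postnatal NSC. With 4 libraries per group, such values cannot show whether same-numbered libraries shared a litter. The replicate block moved only the count of members higher in adult NSC past 1.5-fold among the member counts.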
